A study of Mus musculus with 18 samples.

Results

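The genes described here encode proteins of mitosis and cell division, from the kinase that starts mitosis to the factors that pinch the daughter cells apart. They are 43 listed gene symbols, of 18193 genes tested. Their probe sets were picked by annotation alone, but the genes were listed with earlier results of these data known. A probe set is the group of short oligonucleotides that reports on 1 transcript, and those annotated to 1 of the listed symbols alone were taken, 100 of 45037 on Affymetrix Mouse Genome 430 2.0 arrays. Every listed gene had at least 1 probe set, 13 had a single one, and 30 had between 2 and 5.

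Left ventricles came from wild-type female C57Bl/6 mice of 3 to 4 months in 6 groups with 3 arrays each. The 7EX and 21EX mice were not pregnant and ran voluntarily on wheels for 7 or 21 days. The MP mice were at day 11 of gestation, the LP mice at days 18 to 19, and the 0PP mice within 12 hours of giving birth. The NP/Sed mice were sedentary virgins killed in diestrus and served both as the control of exercise and of pregnancy. Each array held RNA pooled from 2 to 3 hearts, so n counts pools, and p-values measure the spread between pools. All values are the authors' log2 values from RMA, a method that corrects background, equalizes the arrays and condenses the oligonucleotides of a probe set. A difference of 1 on this scale is a doubling.

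Genes of mitosis are transcribed late in the cell cycle and are silent in resting cells, where a repressor complex sits on a short promoter element called the cell cycle genes homology region (CHR). In dividing cells the factors B-Myb and Foxm1 act through the same element, and the factor NF-Y binds CCAAT boxes close to it. Most adult cardiomyocytes have left the cell cycle, and in the adult ventricle it is mainly endothelial cells, fibroblasts and leukocytes that still divide.

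The promoters of 4 genes that are described below, the mitotic kinase gene Cdk1, the cyclin gene Ccnb2, the anaphase activator gene Cdc20 and the kinase subunit gene Cks2, are printed because they show these elements at different spacings. Each runs 5′ to 3′ on the strand of the gene, from 250 bases before to 50 bases after the transcript start in RefSeq (GRCm38.p6). Capitals mark the CHR letters TTTGAA and the CCAAT box, which is written ATTGG where it lies on the opposite strand. The windows are chr10:69352863-69353162 on the minus strand for Cdk1, chr9:70421505-70421804 on the minus strand for Ccnb2, chr4:118437294-118437593 on the minus strand for Cdc20 and chr13:51644982-51645281 on the plus strand for Cks2.
Cdk1: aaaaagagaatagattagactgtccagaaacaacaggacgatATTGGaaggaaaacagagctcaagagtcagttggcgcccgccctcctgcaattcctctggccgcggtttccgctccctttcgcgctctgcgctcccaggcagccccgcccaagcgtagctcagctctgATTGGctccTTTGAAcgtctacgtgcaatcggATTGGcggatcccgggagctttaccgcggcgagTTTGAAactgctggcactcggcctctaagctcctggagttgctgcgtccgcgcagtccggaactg
Ccnb2: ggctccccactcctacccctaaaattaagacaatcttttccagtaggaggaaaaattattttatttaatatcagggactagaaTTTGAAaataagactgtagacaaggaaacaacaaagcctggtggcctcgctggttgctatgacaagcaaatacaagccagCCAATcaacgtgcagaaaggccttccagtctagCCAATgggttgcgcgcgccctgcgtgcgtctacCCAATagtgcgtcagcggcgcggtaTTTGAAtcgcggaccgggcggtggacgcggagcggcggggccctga
Cdc20: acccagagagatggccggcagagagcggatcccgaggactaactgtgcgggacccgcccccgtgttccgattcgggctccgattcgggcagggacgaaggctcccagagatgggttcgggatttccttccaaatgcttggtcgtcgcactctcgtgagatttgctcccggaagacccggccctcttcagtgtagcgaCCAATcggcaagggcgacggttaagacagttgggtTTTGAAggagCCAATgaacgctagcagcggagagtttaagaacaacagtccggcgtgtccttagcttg
Cks2: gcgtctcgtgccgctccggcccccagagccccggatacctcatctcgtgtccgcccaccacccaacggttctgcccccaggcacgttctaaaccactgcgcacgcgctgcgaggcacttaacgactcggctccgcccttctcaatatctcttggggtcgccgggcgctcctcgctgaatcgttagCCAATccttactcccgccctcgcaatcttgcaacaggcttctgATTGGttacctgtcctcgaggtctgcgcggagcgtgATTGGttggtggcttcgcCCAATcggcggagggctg

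Ccnb2 held 3 CCAAT boxes, each starting 33 bases after the one before it, followed by a CHR. Cdk1 held a pair of CCAAT boxes 32 bases apart upstream of a CHR that starts 15 bases before the transcript. Cks2 held 4 CCAAT boxes and no match to the CHR letters in this window. Promoters of 36 of the 43 genes were in the table used, and TTTGAA or TTCGAA, read on both strands, was found in 30 of these, or 83.3%, against 21.7% of all 27025 genes in the table. CCAAT, read on both strands, was found in 28, or 77.8%, against 41.1% of all genes. Both elements occurred together in 26 of the 36 genes, or 72.2%, against 9.65% of all genes. Among members that rose after 7 days of running the CHR letters were found in 17 of 21, and among those that did not pass the test in 13 of 15. A match is a run of letters and not a measured binding site.

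Signals of these genes were low in the ventricle. Of the 100 probe sets, 76 had a mean below 4.93, the lowest median of all probe sets on any array, against 49.4% of all probe sets. The means of the 100 ran between 2.62 and 7.69 with a median of 4.12. By the brightest probe set of each gene, 27 of 43 genes were below that level, a count not made over all genes.

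After 7 days of running, 23 of the 43 genes rose against NP/Sed and none fell. A gene is said to rise or fall where at least 1 of its probe sets has an adjusted p under 0.05 in limma, with Benjamini-Hochberg adjustment over all 45037 probe sets. By the same rule 0.874% of all 18193 genes rose and 0.390% fell. Among the members, 37 of 43 fold changes of the brightest probe set were positive, with a median of 0.49 on the log2 scale against 0.03 over all genes. All 3 arrays of 7EX lay above all 3 of NP/Sed for 30 of 43 members, against 12.8% of all genes. At an unadjusted p under 0.05, 37 members had a higher probe set in 7EX and 2 a lower one, against 13.2% and 9.57% of all genes. Because whole tissue was measured, more dividing cells and more of these transcripts per cell cannot be told apart.

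**Figure D1:**
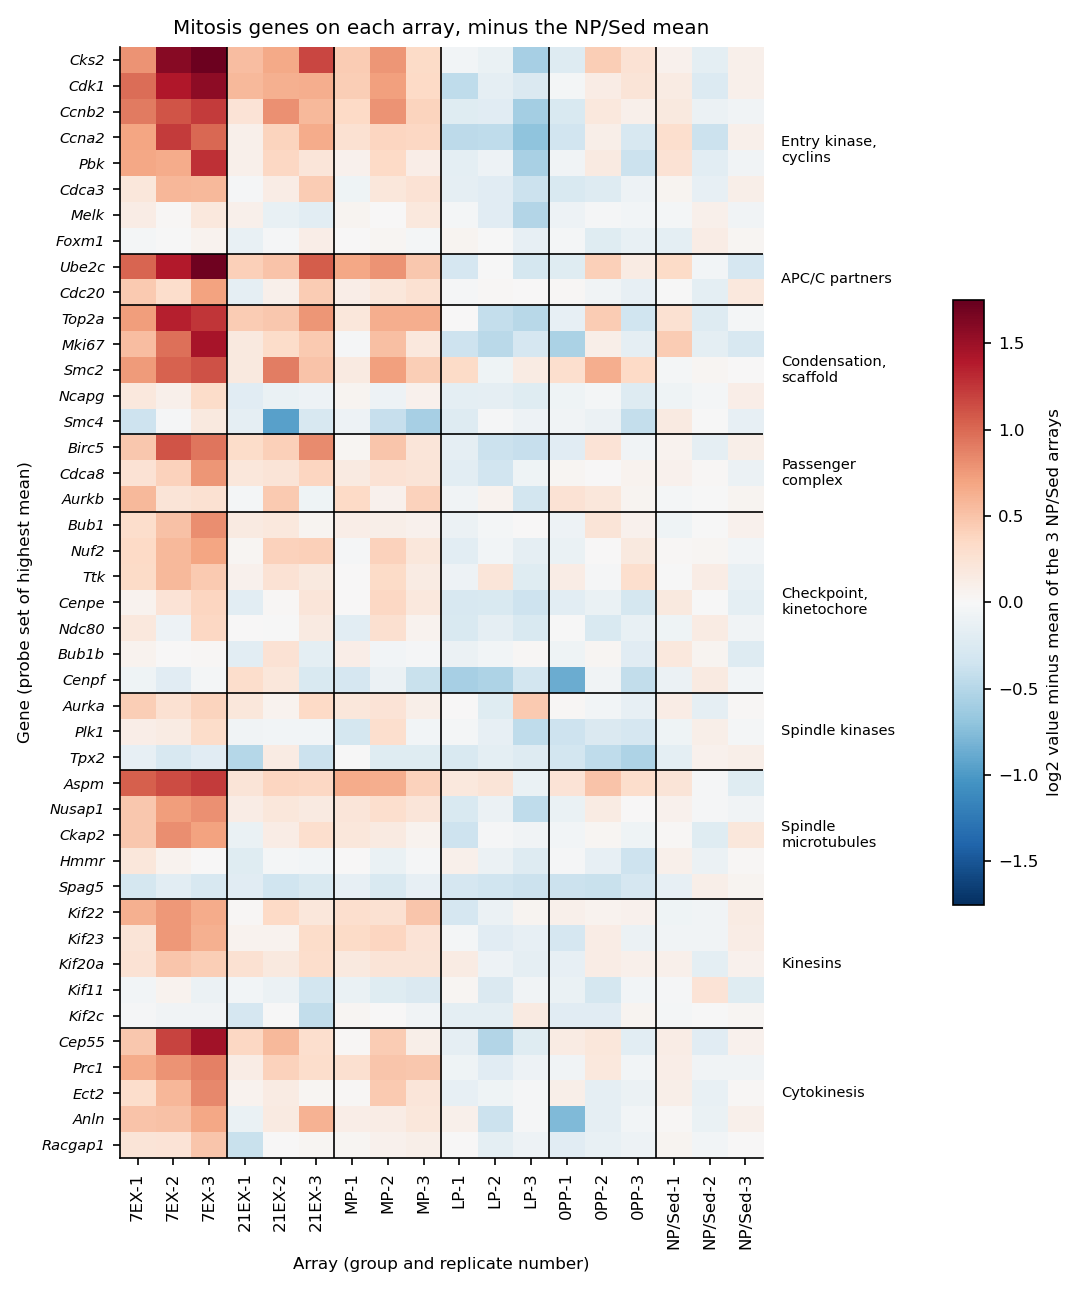
Log2 value of each of the 43 genes (rows, brightest probe set, grouped by role) on each of 18 arrays (columns) minus the mean of the 3 NP/Sed arrays, in colour from blue (lower) to red (higher). The 7EX columns are the reddest, with member medians of 0.34, 0.51 and 0.65, and the LP columns are blue, with medians between -0.22 and -0.15.

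The study's text and supplements name at least 14 of these genes, a choice made on these same samples, and all 14 rose in 7EX, which is therefore not independent evidence of the direction. Of the 29 genes that they were not seen to name, 9 rose (Bub1, Ckap2, Ect2, Kif11, Kif22, Nuf2, Nusap1, Prc1 and Racgap1), against 0.874% of all genes, with a median over the 29 of 0.32. The 29 were also listed with earlier results of these data known, so they are not independent evidence either. The 12 members with the smallest p in this comparison are shown array by array. They were picked by that p, so their 7EX values describe them. In each of the 12 every 7EX array lay above every NP/Sed array.

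The engine of mitotic entry was among the genes that rose most. Cdk1, the kinase that drives cells into mitosis, read 6.54, 6.96 and 7.13 on the 7EX arrays and 5.70, 5.32 and 5.65 on the NP/Sed arrays. It also read 6.13, 6.18 and 6.19 in 21EX, 5.99, 6.28 and 5.91 in MP, 5.11, 5.41 and 5.31 in LP and 5.52, 5.69 and 5.79 in 0PP. Every 7EX array thus lay above each of the 15 others, and the 3 LP arrays included the lowest. The log2 fold change of 7EX over NP/Sed was 1.32 ± 0.14 (SE, n = 3 each, adjusted p = 0.000271).

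Both cyclins among the members rose with it. Ccnb2, cyclin B2, which activates Cdk1, read 5.93, 6.13 and 6.25 in 7EX and 5.19, 4.92 and 4.97 in NP/Sed. Ccna2, cyclin A2, which acts from DNA synthesis to early mitosis, read 5.93, 6.46 and 6.23 in 7EX and 5.53, 4.86 and 5.32 in NP/Sed. Neither gene overlapped between the groups, and the log2 fold changes were 1.08 ± 0.16 (adjusted p = 0.00518) and 0.97 ± 0.17 (adjusted p = 0.0147).

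Cks2, a small subunit that binds Cdk1, is the only member with several probe sets that passed at all of them. At 1 probe set it read 5.99, 6.54 and 6.48 in 7EX and 5.18, 5.05 and 5.18 in NP/Sed, and at the brighter one 6.16, 6.95 and 7.08 in 7EX and 5.44, 5.19 and 5.46 in NP/Sed. The groups were well separated at both, with log2 fold changes of 1.20 ± 0.16 (adjusted p = 0.00387) and 1.36 ± 0.22 (adjusted p = 0.0104). Pbk, a mitotic protein kinase, rose by 0.87 ± 0.17 (adjusted p = 0.0274). The other 3 regulators did not pass. Cdca3, a trigger of mitotic entry, had a log2 fold change of 0.45 (adjusted p = 0.108), and Melk, a kinase of dividing cells, of 0.11. Foxm1, the transcription factor of the mitotic program, averaged 6.69 ± 0.05 in 7EX and 6.68 ± 0.15 in NP/Sed (SD, n = 3 each).

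**Figure D2:**
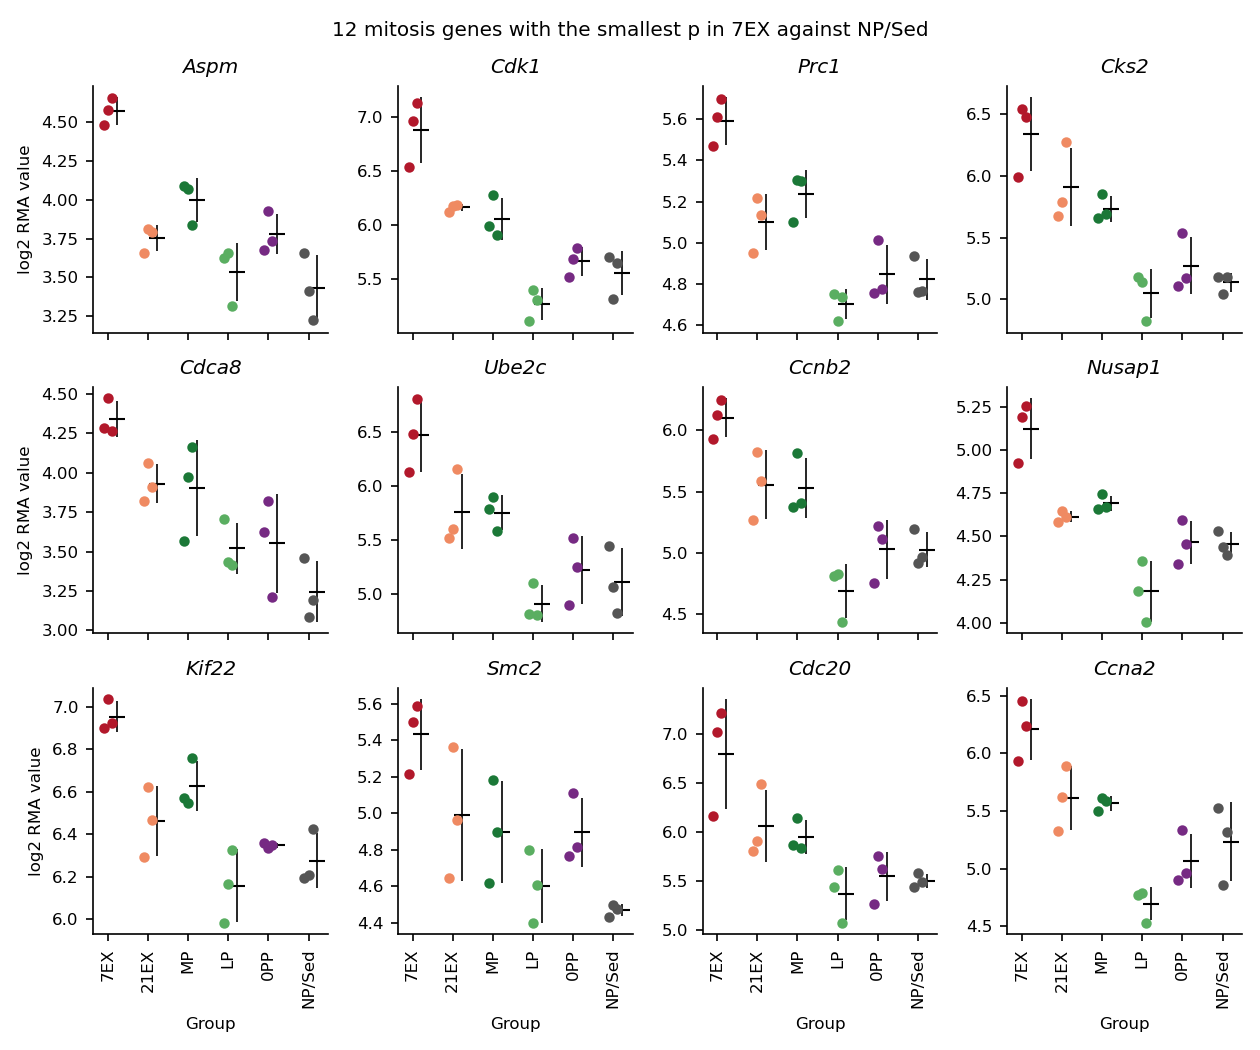
Log2 values of 12 genes in 6 groups (x axis), 1 dot an array, with mean and SD as bars beside the dots, each panel on its own axis. For 8 of these 12 genes, which were picked by their 7EX p, all 7EX arrays lie above all 15 other arrays. By the brightest probe set this held for 13 of all 43 members, against 0.33% of all genes, and in the plot Cks2, Ube2c, Smc2 and Cdc20 overlap with 21EX.

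Both partners of the anaphase-promoting complex, the ubiquitin ligase that ends mitosis, rose. Ube2c, its ubiquitin-conjugating enzyme, read 6.13, 6.49 and 6.82 in 7EX and 5.44, 5.06 and 4.82 in NP/Sed. Its fold change of 1.37 ± 0.20 (adjusted p = 0.00518) was the largest of the brightest probe sets. Cdc20, its activator, read 6.16, 7.03 and 7.21 in 7EX and 5.44, 5.58 and 5.49 in NP/Sed at 1 probe set, a fold change of 1.30 ± 0.22 (adjusted p = 0.0126). The brightest Cdc20 probe set gave 0.49 ± 0.13 (adjusted p = 0.083) and the other gave 0.05, so the gene's rise rests on 1 of its 3 probe sets. That one carries the suffix _x_at, by which Affymetrix marks oligonucleotides that can also match other transcripts.

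Chromosome condensation genes divided into 3 that rose and 2 that did not pass. Smc2, a core subunit of condensin, read 5.21, 5.50 and 5.59 in 7EX and 4.43, 4.50 and 4.47 in NP/Sed, a tight control group, and rose by 0.96 ± 0.16 (adjusted p = 0.0126). Top2a, the topoisomerase that untangles sister chromatids, rose by 1.11 ± 0.20 (adjusted p = 0.0202). Mki67, the Ki-67 protein that coats mitotic chromosomes, averaged 6.63 ± 0.45 in 7EX and 5.64 ± 0.38 in NP/Sed (SD) and rose by 0.99 ± 0.21 (adjusted p = 0.0381). Smc4, which pairs with Smc2, had fold changes of -0.08, 0.07 and 0.30 at its 3 probe sets, none past the test, and the condensin subunit Ncapg had 0.20.

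In the chromosomal passenger complex, which corrects the attachment of chromosomes to the spindle, 2 of 3 genes rose. Cdca8, borealin, read 4.28, 4.47 and 4.26 in 7EX and 3.46, 3.08 and 3.20 in NP/Sed at the probe set with the smallest p, with no overlap, and rose by 1.09 ± 0.15 (adjusted p = 0.00502). Its brightest probe set rose by 0.48 ± 0.11 (adjusted p = 0.0464). Birc5, survivin, rose by 0.84 ± 0.16 (adjusted p = 0.0274). The third gene, the kinase Aurkb, had 0.35 ± 0.13 (adjusted p = 0.239).

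Genes of the kinetochore and its checkpoint, which hold back anaphase until every chromosome is attached, passed at 2 of 7. The checkpoint kinase Bub1 rose by 0.54 ± 0.10 (adjusted p = 0.0265) and the kinetochore protein Nuf2 by 0.53 ± 0.12 (adjusted p = 0.0451). Ttk, the kinase that starts checkpoint signalling, had 0.45 ± 0.12 (adjusted p = 0.0797). Ndc80, the partner of Nuf2, had 0.15, the checkpoint protein Bub1b 0.03, the kinetochore motor Cenpe 0.22 and Cenpf -0.10 at their brightest probe sets.

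None of the 3 genes for spindle assembly kinases and their activator passed. Aurka, the centrosome kinase, had a fold change of 0.36 ± 0.13 (adjusted p = 0.204), and Plk1, a kinase with roles throughout mitosis, of 0.19 ± 0.12 (adjusted p = 0.561). Plk1 read 5.05, 5.08 and 5.26 in 7EX and 4.86, 5.05 and 4.91 in NP/Sed, so its groups all but touched. Tpx2, which activates Aurka, had -0.21 at its brightest probe set and between -0.35 and 0.34 at the others, none past the test.

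Proteins that organise spindle microtubules gave 3 rises of 5. Aspm, a spindle pole protein, read 4.48, 4.58 and 4.66 in 7EX and 3.66, 3.41 and 3.23 in NP/Sed. It also read 3.66, 3.81 and 3.79 in 21EX, 4.09, 4.07 and 3.83 in MP, 3.62, 3.66 and 3.32 in LP and 3.68, 3.93 and 3.74 in 0PP. The 7EX arrays stood close together and above every other array, and the fold change was 1.14 ± 0.11 (adjusted p = 0.000271). The 4 dimmer Aspm probe sets had fold changes between -0.01 and 0.14, none past the test.

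Nusap1, which bundles spindle microtubules, read 4.92, 5.19 and 5.25 in 7EX and 4.53, 4.44 and 4.39 in NP/Sed, a rise of 0.67 ± 0.10 (adjusted p = 0.00518). Ckap2, which stabilizes microtubules in mitosis, rose by 0.66 ± 0.12 (adjusted p = 0.0212). The spindle proteins Hmmr and Spag5 did not pass, with fold changes of 0.09 and -0.26 at their brightest probe sets.

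Among the mitotic kinesins, the motors that move chromosomes and slide spindle microtubules, 2 of 5 rose. Kif22, a motor bound to chromosome arms, read 6.90, 7.04 and 6.93 in 7EX and 6.19, 6.21 and 6.42 in NP/Sed, and rose by 0.68 ± 0.10 (adjusted p = 0.00518), at an _x_at probe set. Kif11, which pushes the spindle poles apart, rose by 0.60 ± 0.12 (adjusted p = 0.0345) at 1 probe set, while its brightest had -0.03. Kif23, a motor of the central spindle, had 0.53 ± 0.12 and just missed the limit (adjusted p = 0.0544), and Kif20a had 0.39 ± 0.10 (adjusted p = 0.0797). Kif2c, which takes microtubules apart, had -0.05.

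Cytokinesis genes rose at 4 of 5. Prc1, which cross-links microtubules of the central spindle, read 5.47, 5.61 and 5.70 in 7EX and 4.94, 4.76 and 4.77 in NP/Sed, and rose by 0.77 ± 0.10 (adjusted p = 0.00212). Cep55, which recruits the machinery of the final cut, rose by 1.04 ± 0.19 (adjusted p = 0.0196), and its 7EX arrays were spread over 4.16, 4.86 and 5.15. Ect2, an activator of the small GTPase RhoA, rose by 0.58 ± 0.12 (adjusted p = 0.0379). Racgap1, its partner at the central spindle, rose by 0.52 ± 0.11 (adjusted p = 0.0388) at 1 probe set and had 0.32 at its brightest, while Anln, a scaffold of the contractile ring, had 0.56 ± 0.17 (adjusted p = 0.143).

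Of the 23 genes that rose, 14 have several probe sets, and in 13 of the 14 some probe sets passed and others did not. Of all 100 member probe sets 25 passed, all higher in 7EX, as did 0.409% of all 45037. These were 11 of the 24 at or above the lowest array median and 14 of the 76 below it. With the limit on fold change from the study's methods added, 14 of the 43 genes passed, against 0.110% of all genes in that direction. They were the 14 genes that the study names from these same samples, and none of the 29 others passed. The count of 14 is therefore not independent of the study's own calls. The 7EX pools also differed among themselves. Array 7EX-1 was the lowest of the 3 in 20 of the 23 genes, and 7EX-3 the highest in 15, and the median SD of these genes was 0.25 in 7EX and 0.15 in NP/Sed.

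**Figure D3:**
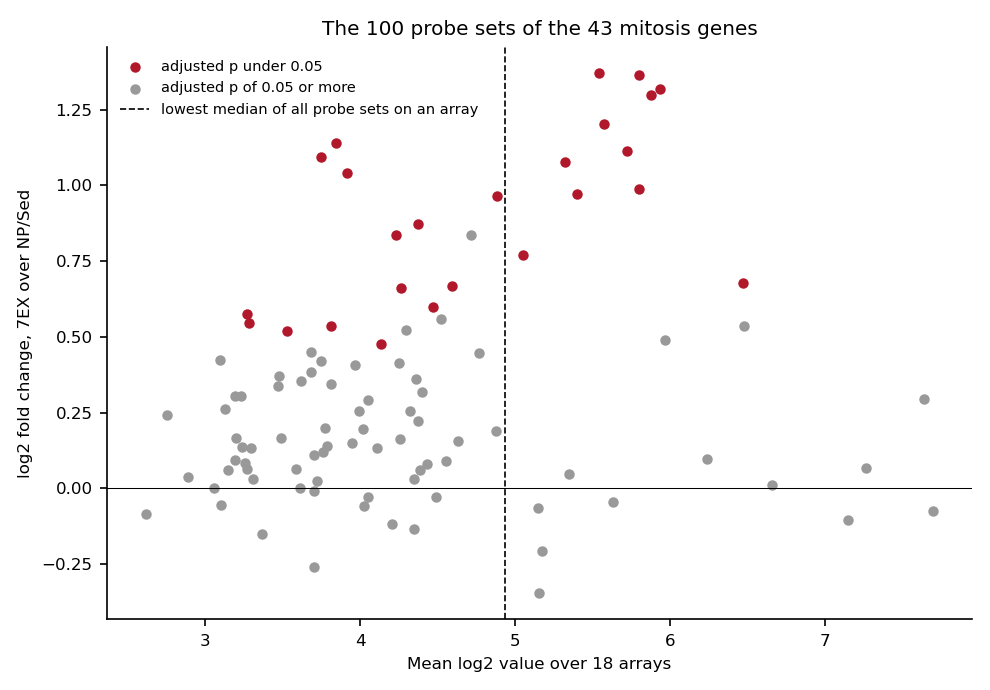
Log2 fold change of 7EX over NP/Sed (y axis) against the mean log2 value over 18 arrays (x axis) for the 100 probe sets, in red where the adjusted p is under 0.05. The 25 red probe sets are all above 0 and lie on both sides of the dashed line, the lowest array median of 4.93, 11 of them to its right.

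The count of 23 changed when single pools were left out and when a measure of RNA quality entered the fit. With 1 array left out, the count was 9 without 7EX-2, without 7EX-3 or without NP/Sed-2, and at most 24, without 0PP-1. Member counts with 1 array left out, here and below, are given without the share of all genes called in the same fit. A lower count need therefore not be particular to the members. The 3′ minus 5′ signal of beta-actin grows as RNA is degraded or shortened in labelling. It was 1.05 to 1.09 in 7EX, below the 1.11 to 1.36 of NP/Sed and below all other groups. That of Gapdh was -0.065 to -0.028 in 7EX, within the -0.072 to 0.109 of NP/Sed, and overlapped with 21EX and LP. With the mean 3′ minus 5′ signal of beta-actin and Gapdh as a covariate 3 members passed (Aspm, Cdk1 and Prc1), of 8 genes called in all. Without it 159 of all 18193 genes rose and 71 fell. The fold changes of the 12 genes shown lay between 0.62 and 1.35 with the covariate and between 0.67 and 1.37 without it. The part of RNA quality in the result was not tested further.

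The rest of the cell cycle was covered by 3 further lists. Of 83 further mitosis genes 10 rose in 7EX and none fell, with a median of 0.12. They included Stmn1, the microtubule-destabilizing stathmin (0.72 ± 0.09, adjusted p = 0.00212), and Hmgb2, a chromatin protein (0.78 ± 0.11, adjusted p = 0.00489). Of 45 DNA replication genes 8 rose and none fell, with a median of 0.25, among them the helicase subunit Mcm6 (0.63 ± 0.13) and the sliding clamp Pcna (0.39 ± 0.08). Of 38 regulators of the start of the cycle 3 rose, Ccnd1, Cdk4 and the repressor E2f8. Only Cdkn1b, the inhibitor p27, fell in this list, at a log2 fold change of -0.99 ± 0.21 (adjusted p = 0.0404).

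Markers of the cell types of the ventricle gave the following counts. Of 13 macrophage and monocyte markers 2 rose in 7EX, Cd68 (0.59 ± 0.12) and Lyz2 (0.56 ± 0.11), and the mean of the list was 7.74 to 7.87 on the 7EX arrays and 7.45 to 7.65 on the NP/Sed arrays. Of 14 endothelial markers 1 rose, Emcn, by 0.49 ± 0.09, with list means of 9.28 to 9.42 in 7EX and 9.14 to 9.34 in NP/Sed. None of 14 fibroblast, 12 lymphocyte, 9 neutrophil or 10 erythroid markers passed, and 8 of the 12 lymphocyte markers had means no higher than the highest array median of 5.02. Of 14 cardiomyocyte markers 1 fell, Tnnt2, at a probe set with a mean of 9.19, and their mean was 13.61 to 13.62 in 7EX and 13.59 to 13.65 in NP/Sed. Of 5 atrial markers none passed, with a median of 0.63. The part of these cells in the rise of the mitosis genes was not tested.

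After 21 days of running, 3 members rose against NP/Sed and none fell, while 2.98% of all genes rose and 2.21% fell. They were Cks2 (0.77 ± 0.16, adjusted p = 0.0198), Cdca8 (0.69 ± 0.15, adjusted p = 0.0272) and Cdk1 (0.61 ± 0.14, adjusted p = 0.0272). The other probe sets of Cdca8 had 0.27 (adjusted p = 0.173) and 0.06, and the brighter Cks2 probe set 0.79 (adjusted p = 0.0596). Cks2 read 5.68, 5.79 and 6.27 in 21EX and 5.18, 5.05 and 5.18 in NP/Sed, and Cdca8 read 3.82, 4.06 and 3.91 in 21EX and 3.46, 3.08 and 3.20 in NP/Sed. Neither gene overlapped between the groups. At an unadjusted p under 0.05, 18 members had a higher probe set and 4 a lower one, against 20.2% and 12.8% of all genes. The median over the 43 members was 0.16, with 31 positive and 12 negative, against 0.04 over all genes. Of the 45 DNA replication genes of the list above 8 rose in 21EX and none fell, with a median of 0.20, and of the 83 further mitosis genes 5 rose and none fell. Of 13 macrophage and monocyte markers 3 were higher in 21EX (C1qc, Cd68 and Lyz2), with list means of 7.74 to 7.90 in 21EX and 7.45 to 7.65 in NP/Sed. The fibroblast marker Tcf21 was higher, and the endothelial marker Flt1 and the cardiomyocyte markers Tnnt2 and Ttn were lower. The part of these cells was not tested. The count of 3 members fell to 0 without 21EX-2, 21EX-3 or NP/Sed-2 and reached 6 without 21EX-1 and 5 without NP/Sed-1.

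Set directly against 7EX, 21EX had 1 lower member and no higher one. That member was Aspm, whose 21EX arrays all lay below its 7EX arrays, with a log2 fold change of -0.82 ± 0.11 (adjusted p = 0.0401). The beta-actin 3′ minus 5′ signal separated these groups, at 1.17 to 1.22 in 21EX and 1.05 to 1.09 in 7EX. That of Gapdh overlapped, at -0.041 to -0.004 in 21EX and -0.065 to -0.028 in 7EX. With the 3′ covariate no gene passed. Aspm was the only gene called of 18193 in that comparison, 0.00550% of all genes, and the call was lost when any one of the 6 arrays compared, or any of NP/Sed-2, MP-1, MP-2, LP-1, 0PP-1 and 0PP-3, was left out. At an unadjusted p under 0.05, 30 members had a lower probe set and 0 a higher one, against 5.12% and 6.61% of all genes. Of the 43 members 42 had negative fold changes, with a median of -0.34, against 0.01 over all genes. The 21EX arrays lay wholly below the 7EX arrays for 17 of 43 members, against 4.57% of all genes. The same comparison gave a median of -0.06 over the 45 DNA replication genes, with none past the test.

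**Figure D4:**
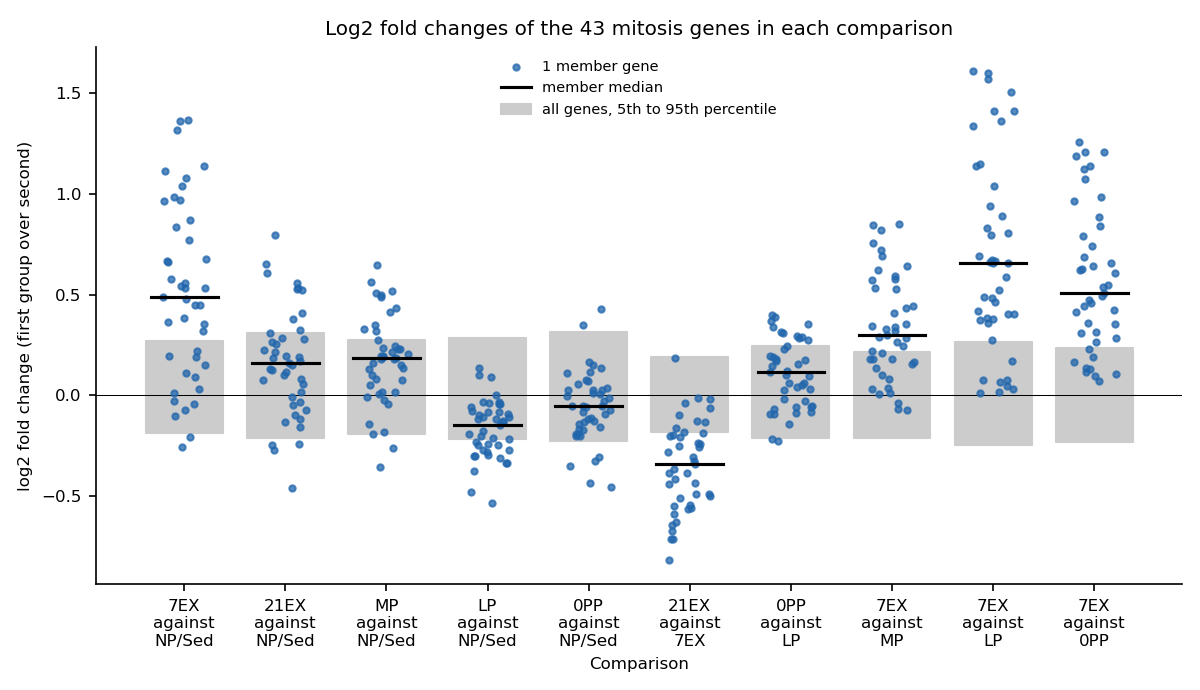
Log2 fold changes of the 43 genes (dots, brightest probe set) in 10 comparisons (x axis), each the first group named over the second, with the member median as a black line and the 5th to 95th percentile of all 18193 genes as a grey band. The medians are highest in 7EX against LP (0.66), 0PP (0.51) and NP/Sed (0.49) and lowest in 21EX against 7EX (-0.34).

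At mid-pregnancy 3 members rose against NP/Sed and none fell, while 1.17% of all genes rose and 0.940% fell. Aspm rose by 0.57 ± 0.11 (adjusted p = 0.0219), Prc1 by 0.41 ± 0.10 (adjusted p = 0.0407) and Cdca8 by 0.66 ± 0.15 (adjusted p = 0.0445). Prc1 read 5.10, 5.31 and 5.30 in MP and 4.94, 4.76 and 4.77 in NP/Sed, and Cdca8 read 3.57, 3.97 and 4.17 in MP, all above its NP/Sed arrays. At an unadjusted p under 0.05, 13 members had a higher probe set and 1 a lower one, against 12.7% and 10.8% of all genes. The member median was 0.19, with 35 positive and 8 negative, and 14 members had all MP arrays above all NP/Sed arrays, a share to set against 12.6% of all genes. No member passed with the covariate for the 3′ minus 5′ signal, which was 1.32 to 1.35 for beta-actin in MP, none passed without NP/Sed-2, NP/Sed-3 or MP-2, 1 passed without MP-3 or 7EX-2, and 4 passed without 7EX-1. Of 13 macrophage and monocyte markers 7 were higher in MP, with list means of 7.85 to 7.98 in MP and 7.45 to 7.65 in NP/Sed, and 2 of 10 erythroid markers were higher as well. The fibroblast markers Col1a2 and Dcn, the endothelial marker Flt1 and the adipocyte marker Adipoq were also higher. The cardiomyocyte marker Myh6 and the pericyte marker Abcc9 were lower. The part of these cells was not tested.

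Directly compared with MP, 7EX had 4 higher members and no lower one, against 0.451% and 0.649% of all genes. They were Cdk1 (0.82 ± 0.14, adjusted p = 0.00688), Aspm (0.58 ± 0.11, adjusted p = 0.0219), Cep55 (0.85 ± 0.19, adjusted p = 0.0430) and Nusap1 (0.43 ± 0.10, adjusted p = 0.0478). By the brightest probe set, 25 of 43 members had every 7EX array above every MP array, against 9.47% of all genes. The member median was 0.30, and 40 of 43 were positive. Of 13 macrophage and monocyte markers 2 were lower in 7EX (C1qb and Cd163), and Dcn, Flt1, Plin4, Alas2 and Slc4a1 were lower and Cldn5 and Tcf21 higher. The count was 0 without 7EX-3 or MP-3 and with the 3′ covariate, 1 without 7EX-2, 2 without MP-1, NP/Sed-1, 21EX-3 or 0PP-1, and 11 without 7EX-1.

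Late pregnancy was the low point of most members. LP had the lowest group mean in 28 of 43 genes and the lowest single array in 25, of which 14 in LP-3. These counts were not made over all genes. Only Spag5 fell against NP/Sed, where 2.20% of all genes rose and 0.770% fell. Spag5 read 3.64, 3.59 and 3.56 in LP and 3.78, 4.03 and 3.98 in NP/Sed at its brightest probe set, a log2 fold change of -0.34 ± 0.08 (adjusted p = 0.0317), and its other probe sets had -0.01 and -0.17. The brightest one also read 3.63, 3.75 and 3.65 in 7EX, 3.74, 3.59 and 3.66 in 21EX and 3.78, 3.66 and 3.79 in MP. Every group thus averaged below NP/Sed there, and the low value is not particular to LP. Of the 43 members 39 were negative, with a median of -0.15 against 0.01 over all genes, and all LP arrays lay below all NP/Sed arrays for 12, to set against 7.68% of all genes. No member had a higher probe set at an unadjusted p under 0.05 and 12 had a lower one, against 13.4% and 9.67% of all genes. Ccna2 had the largest negative value, with 4.77, 4.79 and 4.53 in LP and 5.53, 4.86 and 5.32 in NP/Sed (-0.54 ± 0.17, adjusted p = 0.130). The call of Spag5 was lost without any single LP array or NP/Sed-3. Of 14 fibroblast markers Col1a1 and Col3a1 were lower in LP and Dcn higher, with list means of 9.64 to 9.77 in LP and 9.73 to 9.96 in NP/Sed. Of 14 endothelial markers 4 were higher in LP (Eng, Fabp4, Flt1 and Vwf), as were the macrophage marker Cd163 and the adipocyte marker Plin4. The part of these cells was not tested.

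Within 12 hours of birth the members stood close to NP/Sed. Spag5 alone fell, by 0.35 on the log2 scale (adjusted p = 0.0281), while 3.07% of all genes rose and 0.792% fell. It read 3.56, 3.54 and 3.64 in 0PP, below all 3 NP/Sed arrays, as it also did in 7EX, 21EX and LP. Its other probe sets had 0.06 and 0.02, and its call was lost without NP/Sed-2, NP/Sed-3 or any single 0PP array. The count was 3 without NP/Sed-1 and 2 without 21EX-2. Of 13 macrophage and monocyte markers 4 were higher in 0PP, of 14 fibroblast markers 3 and of 14 endothelial markers 3. The erythroid marker Alas2 was also higher and the cardiomyocyte marker Tnnt2 lower. The member median was -0.05, with 16 positive and 27 negative. Against LP no member of 0PP passed in limma or with the regularized test of the study's methods, where 1.05% of all genes were higher and 0.588% lower. At an unadjusted p under 0.05, 6 members had a higher probe set and 0 a lower one, against 9.55% and 7.52% of all genes. The member median was 0.12, with 30 positive and 13 negative. Of 14 fibroblast markers 6 were higher in 0PP than in LP and Dcn was lower. Alas2 was higher too, and Fabp4 and Plin4 were lower.

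Set against LP, 34 of 43 members were higher in 7EX and none lower, while 2.52% of all genes were higher and 2.50% lower. All 43 fold changes were positive, with a median of 0.66 against 0.02 over all genes. The 9 members that did not pass were Aurka, Aurkb, Cenpf, Foxm1, Kif2c, Melk, Ndc80, Plk1 and Smc4. Cdk1 had the smallest p of the 12 genes shown (1.60 ± 0.14, adjusted p = 8.08e-06), and Ube2c (1.57 ± 0.20, adjusted p = 0.000122) and Ccna2 (1.51 ± 0.17, adjusted p = 5.32e-05) differed by nearly as much. With 1 array left out, the count was lowest, at 23, without 7EX-3 and highest, at 35, without 0PP-1. Fibroblast markers moved with it, with 7 of 14 higher in 7EX (Col1a1, Col1a2, Col3a1, Lum, Mfap5, Tcf21 and Vim), 1 lower (Dcn) and list means of 9.94 to 10.14 in 7EX and 9.64 to 9.77 in LP. The endothelial markers Cdh5 and Emcn, the atrial marker Nppa, Acta2, Ms4a1 and Tfrc were also higher, and Fabp4, Flt1, Cd163 and Plin4 lower. The part of these cells was not tested.

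**Figure D5:**
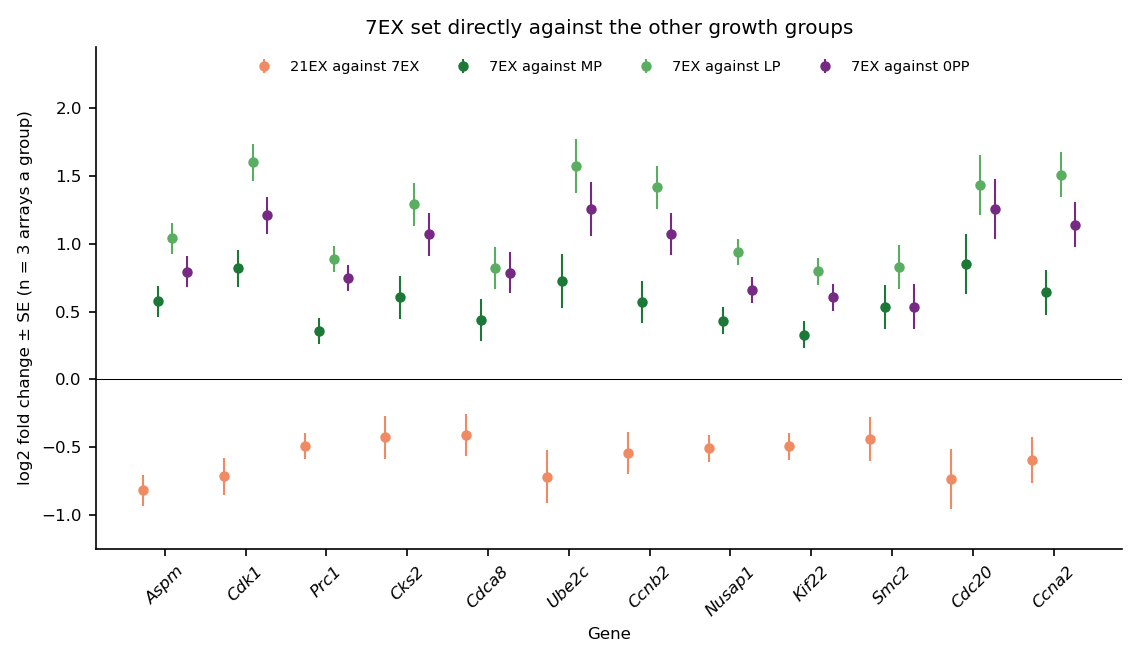
Log2 fold change ± SE (y axis, n = 3 arrays a group) of 12 genes (x axis) in 21EX against 7EX and in 7EX against MP, LP and 0PP, each the first group over the second. The 21EX values run between -0.82 and -0.41, those against MP between 0.33 and 0.85, against LP between 0.80 and 1.60 and against 0PP between 0.54 and 1.26.

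Set against 0PP, 24 members were higher in 7EX and none lower, while 0.451% of all genes were higher and 0.544% lower. All 43 were again positive, with a median of 0.51 against 0.01 over all genes. Of the 12 genes shown all but Smc2 passed, and Smc2 had 0.54 ± 0.16 (adjusted p = 0.176). The count was 9 without 7EX-2 or without 7EX-3, 10 without 0PP-1, 13 without 0PP-3, and 0 with the 3′ covariate, in which fit no gene at all was called in this comparison. Of 14 endothelial markers Cldn5 was higher in 7EX and Flt1 lower, of 12 lymphocyte markers Ighm was higher, and none of 14 fibroblast or 13 macrophage markers passed. Beta-actin's 3′ minus 5′ signal was 1.28 to 1.32 in 0PP. These comparisons share the 7EX arrays, and those above share the NP/Sed arrays, so they are not independent of each other.

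Ordered by the median deviation of the 43 members from the NP/Sed mean, the 7EX arrays came first (0.34 to 0.65), and MP (0.08 to 0.27) and 21EX (0.07 to 0.21) overlapped each other. 0PP (-0.09 to 0.01) and NP/Sed (-0.04 to 0.05) overlapped as well, and LP (-0.22 to -0.15) lay below both. The highest group mean belonged to 7EX in 37 of 43 members and to NP/Sed in 5. For 34 members the highest single array was in 7EX, of which 23 in 7EX-3. These counts were not made over all genes.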

How the data were processed

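Samples were grouped by their labels into 6 groups of 3 arrays, and each array held equal amounts of RNA from 2 to 3 left ventricles. The authors ran RMA over all 18 arrays and deposited the log2 values used here. They called probe sets with Cyber-T, a regularized t-type test, at a posterior probability of at least 0.95 together with a minimum fold change. No test included the 64 control probe sets. Of the 45037 others, 34945 carry 1 gene symbol in the platform annotation, 932 several and 9160 none, and 34741 have a gene ID that is in the RefSeq table.

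Differences were tested with limma 3.58.1 in R 4.3.3 on all 18 arrays (12 residual degrees of freedom, 6.45 from the prior) in 10 comparisons, with Benjamini-Hochberg adjustment within each. Where a gene has several probe sets, the brightest one over the 18 arrays gives its fold change, and any passing one its call. Genes shown array by array were the 12 members with the smallest p in 7EX against NP/Sed, at the probe set of that p. In addition, members called in the other comparisons were named, and members that did not pass were named within their role. Arrays were simulated for 45037 probe sets, with each mean over the 18 arrays and the spread averaged over the 6 groups. Of changes put into 7EX, 27 of 50 of 0.5 on the log2 scale were recovered against NP/Sed, and 50 of 50 of 1. There 9 unchanged probe sets were called. The simulated noise was independent between probe sets and had the same spread in every group. The members that rose had a median SD of 0.25 in 7EX and 0.15 in NP/Sed, so these recoveries need not hold for them. The number of arrays limits the precision of every value.

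The members and the lists of other genes were chosen with earlier results of these data known. The lists hold further mitosis, DNA replication and cell-cycle start genes and markers of cardiomyocytes, atrial cells, endothelium, fibroblasts, pericytes, macrophages, neutrophils, lymphocytes, erythroid cells, adipocytes and mesothelium. None of 10 pericyte, 6 adipocyte or 6 mesothelial markers passed in 7EX. The 1 probe set annotated to a member together with other genes was not used. Same-numbered 0PP and NP/Sed arrays deviated together (correlations of 0.117 to 0.179 over probe sets), and the replicate number as a block left their count at 1. Alternatives covered the fold limit, Cyber-T, the arrays in the fit, normalization, choice of probe sets, a minimum level, a covariate for RNA integrity, the replicate block and each array left out. The test without probe sets ending in _x_at or _s_at was chosen after seeing the data. Promoters were shown for 4 genes chosen after their elements were seen. Tpx2, Ccna2, Foxm1, Kif20a, Aurkb, Smc4 and Pbk were not in the promoter table.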

Additional observations from a re-analysis of the deposited data

Results flagged for a closer look

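Members differed between 7EX and the groups set directly against it. The comparison of 21EX with 7EX gave 1 member past the test, and 7EX against MP gave 4, against LP 34 and against 0PP 24. Against LP, the log2 fold changes of 7EX were 1.60 for Cdk1, 1.57 for Ube2c, 1.51 for Ccna2, 1.43 for Cdc20, 1.41 for Ccnb2 and 1.29 for Cks2. They were 1.04 for Aspm, 0.94 for Nusap1, 0.89 for Prc1, 0.83 for Smc2, 0.82 for Cdca8 and 0.80 for Kif22. These 12 genes had been picked by their 7EX values, so their differences from LP are a description.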

How the results depend on the processing

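The limit on fold change gave 14 members in 7EX, 0 in each of 21EX, MP, LP and 0PP, and, for 7EX, 2 against MP, 17 against LP and 12 against 0PP. Cyber-T gave 9 in 21EX, 0 in 0PP and 12 for 7EX against MP. Fitting only the arrays compared gave 1 in MP, 0 in LP, 0PP and 21EX against 7EX, and, for 7EX, 1 against MP and 10 against 0PP. A minimum mean of 5 gave 11 in 7EX, 1 in MP, 0 in LP and 21EX against 7EX, and, for 7EX, 1 against MP and 11 against each of LP and 0PP, with fewer probe sets tested. Repeated quantile normalization gave 0 in LP, 0PP and 21EX against 7EX, and median centring 0 in LP and 21EX against 7EX. The mean of a gene's probe sets gave 0 in MP, LP, 0PP and 21EX against 7EX, and the brightest probe set alone 2 in 0PP. The 3′ covariate gave 3 in 7EX and 0 in MP, in 21EX against 7EX and in 7EX against MP and 0PP. Without _x_at and _s_at probe sets 1 passed in MP, and 18 in 7EX. With the replicate number as a block, MP had 1 member and LP 0, and in 7EX 20 passed. Replicate numbers paired the arrays of no comparison but 0PP with NP/Sed (correlations elsewhere between -0.27 and 0.12). For these settings the cause was not tested where none is given. The counts here and below are given without the share of all genes called in the same setting. A count that moved need therefore not be particular to the members.

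Leaving out 1 array gave 9 to 24 members in 7EX, 0 to 6 in 21EX, 0 to 4 in MP, 0 to 1 in LP, 0 to 3 in 0PP, 0 to 1 for 21EX against 7EX and 0 to 0 for 0PP against LP. For 7EX it gave 0 to 11 against MP, 23 to 35 against LP and 9 to 24 against 0PP. Of 380 fold changes of named genes under these alternatives, 268 kept their direction and side of the threshold, 112 kept the direction alone and 0 reversed.

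Of the 100 probe sets 76 lay below the lowest array median, against 49.4% of all probe sets. At that level signal over background limits what can be detected. Pools of hearts hide the spread between animals.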
